A study of Homo sapiens with 10 samples.

Results

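Glypicans and syndecans, the 2 gene families that encode the core proteins of most cell surface heparan sulphate proteoglycans, were followed through the hepatic differentiation of human embryonic stem cells. The genes were taken from the expression table by name, and 9 of its 12125 genes were members: the glypicans GPC1, GPC2, GPC3, GPC4 and GPC6, and the syndecans SDC1, SDC2, SDC3 and SDC4. RNA of H1 cells, an established human embryonic stem cell line, was sequenced in bulk on 10 days, with 1 library per day. Day 0 cells were undifferentiated and received no factor. The libraries of days 1, 2 and 3 came from cells given 100 ng/ml Activin A, those of days 5 and 7 from cells given 20 ng/ml BMP2 and 30 ng/ml FGF4, those of days 9 and 11 from cells given 20 ng/ml HGF and 20 ng/ml KGF, and those of days 13 and 21 are labelled with 20 ng/ml Oncostatin M (OSM). The protocol text counts day 13 as the last day of HGF and KGF, so the medium of that library is uncertain. The cells were kept in serum-free medium throughout, were not sorted, and belonged to 1 cell line. Because no day has a second library, no difference between days could be tested, and the values below are descriptions of these 10 libraries.

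A glypican is tied to the outer face of the membrane by a glycosylphosphatidylinositol anchor and carries its heparan sulphate chains close to the membrane, whereas a syndecan crosses the membrane and has a short cytoplasmic tail that binds scaffold proteins. The sulphated chains of both families bind FGF, BMP, Wnt, HGF and chemokine ligands, and present them to their receptors or hold them away from them. In the liver, GPC3 is known as an oncofetal protein, present in the fetal organ, silent in the adult one and made again in hepatocellular carcinoma. SDC1 is known as the main hepatocyte proteoglycan for the clearance of remnant lipoproteins.

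The 9 genes differed in how far their values moved. Between the lowest and the highest day, GPC3 differed 116-fold, GPC4 77.1-fold and GPC2 50.7-fold, GPC6 7.77-fold and GPC1 2.70-fold. Of the syndecans, SDC2 differed 8.90-fold, SDC1 5.10-fold, SDC4 4.27-fold and SDC3 2.99-fold, so GPC6 and GPC1 lay within or below the range of the syndecans. The values are normalized scores in which read counts were adjusted for the GC content of each gene. They were not scaled to gene length and are not compared between genes here. The libraries also share an upper quartile, a median of 81 or 82 and a maximum of 18734. A value followed from day to day within a gene therefore gives mainly its place within each library. A ratio of values, for each of the 9 genes, is not a ratio of RNA amounts.

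**Figure D1:**
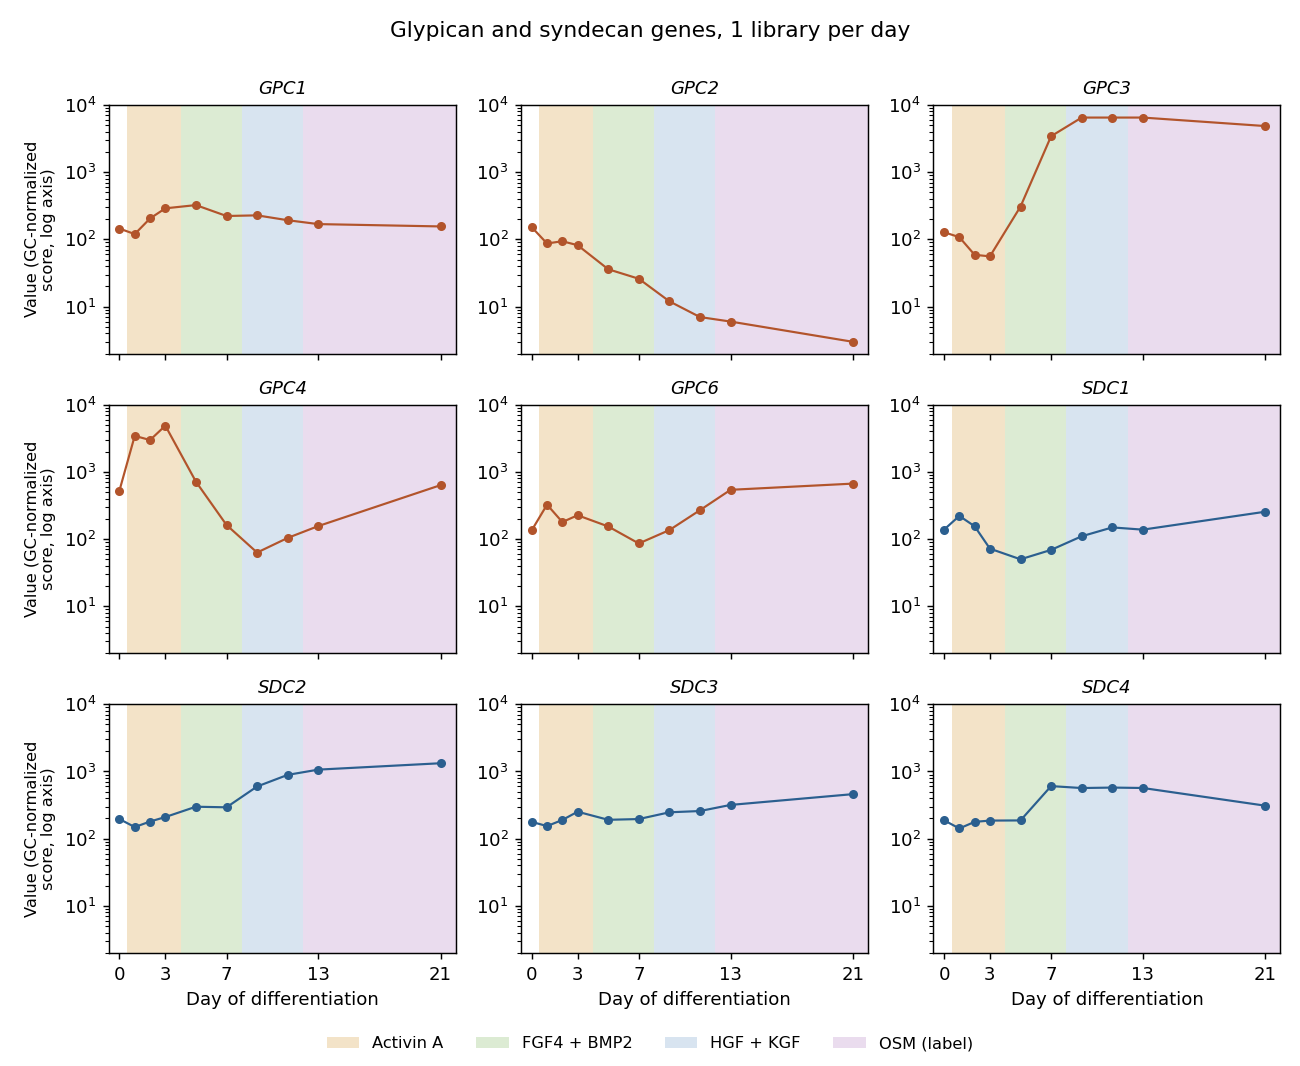
Normalized score of each glypican (brown) and syndecan (blue) on a log axis against the day of differentiation, 1 point per library, with shading for the factors named in the labels. GPC4 is highest on days 1 to 3, GPC3 from day 7 on, GPC2 becomes lower with time, and SDC2 and GPC6 are highest on day 21.

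As a measure of spread, the standard deviation (SD) of the differences of log2(value + 1) between days 9 and 11 was taken over all genes, since these libraries share a medium. It was 1.22 for genes with a mean value under 10, 0.77 from 10 to 30, 0.41 from 30 to 100, 0.32 from 100 to 300, 0.27 from 300 to 1000, 0.28 from 1000 to 2000 and 0.37 from 2000 upwards. A difference is called larger than this spread below where it exceeded 2 SD of its level. Days 9 and 11 were more alike than the other pairs of days examined. The SD of genes between 100 and 300 was 0.70 for days 5 and 7 and 0.54 for days 1 and 2, which also hold the change between those days. Since days 9 and 11 differ little, many genes of the table passed this limit. It was passed by 29% of all genes between days 0 and 3, 35.1% between days 3 and 7, 26.5% between days 7 and 13, 27.6% between days 13 and 21 and 57.5% between days 0 and 21, and by 6, 5, 6, 4 and 7 of the 9 members. With the SD of days 5 and 7 in its place, 7.84%, 12.6%, 6.99%, 5.26% and 27.6% of all genes passed, and 1, 3, 2, 1 and 4 members. So a difference within the spread is small, but one beyond it is common.

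Of the 5 members that differed at least 2-fold between days 3 and 7, GPC2, GPC4, GPC6 and SDC4 are shown by the 250 bases before their RefSeq transcription start on GRCh38.p14, because this was the protocol step over which the most members were counted, in both directions. GPC3, the fifth, has no entry. The GPC2 window is chr7:100177382-100177631 on the minus strand, that of GPC4 is chrX:133415490-133415739 on the minus strand, that of GPC6 is chr13:93226557-93226806 on the plus strand and that of SDC4 is chr20:45348425-45348674 on the minus strand. Each is written 5′ to 3′ in the direction of transcription, with capitals for the GC box GGGCGG on either strand, read as CCGCCC on the other strand, or for the TATA box TATAAA on either strand.
GPC2: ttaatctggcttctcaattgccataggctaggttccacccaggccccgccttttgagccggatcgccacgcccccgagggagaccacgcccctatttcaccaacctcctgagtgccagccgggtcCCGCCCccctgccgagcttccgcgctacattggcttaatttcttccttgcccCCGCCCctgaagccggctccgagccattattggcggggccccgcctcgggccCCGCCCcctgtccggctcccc
GPC4: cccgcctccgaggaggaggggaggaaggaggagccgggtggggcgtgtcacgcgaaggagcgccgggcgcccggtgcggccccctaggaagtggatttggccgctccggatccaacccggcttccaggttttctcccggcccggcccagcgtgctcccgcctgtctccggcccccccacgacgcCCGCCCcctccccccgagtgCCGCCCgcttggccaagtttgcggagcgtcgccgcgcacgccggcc
GPC6: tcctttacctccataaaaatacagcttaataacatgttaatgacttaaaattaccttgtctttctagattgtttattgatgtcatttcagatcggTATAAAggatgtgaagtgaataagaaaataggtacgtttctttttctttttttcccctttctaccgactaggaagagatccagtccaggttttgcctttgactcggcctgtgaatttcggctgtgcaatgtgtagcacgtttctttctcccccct
SDC4: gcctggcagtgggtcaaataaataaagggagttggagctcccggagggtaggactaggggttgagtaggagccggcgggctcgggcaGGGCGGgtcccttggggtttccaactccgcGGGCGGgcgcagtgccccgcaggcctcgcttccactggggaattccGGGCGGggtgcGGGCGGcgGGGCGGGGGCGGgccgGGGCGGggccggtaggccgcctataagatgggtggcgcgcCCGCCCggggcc
The GC box occurred 3 times before GPC2, 2 times before GPC4 and 8 times before SDC4, and not before GPC6. The GPC6 window held 1 match to TATAAA, which begins 155 bases before the start. Of the 9 members, 7 had a window (GPC3 and SDC2 have no entry), with 2 windows for SDC1. The GC box was found in 6 of these 7 members, in GPC1, GPC2, GPC4, SDC1, SDC3 and SDC4, and in 42.6% of all 35116 windows of the same length. TATAAA was found in 1 member and in 10.7% of all windows. The forkhead core TGTTTAC and the GATA core AGATAA, searched on both strands, were found in 0 member windows, and in 2.98% and 9.17% of all windows. GPC6 also stood apart by base composition, with 37.6% G and C in its window against 66.4% to 84.0% in those of the other members and a median of 58.0% over all windows. A match describes letters and not binding, and GPC4 and SDC4, which moved in opposite directions between days 3 and 7, both carry the GC box.

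GPC4 (ENSG00000076716, chrX:132434131-132549518 on the minus strand as the table gives it) encodes K-glypican, a co-receptor for FGF and Wnt ligands that is present on pluripotent cells. Its values were 527 on day 0, 3430, 2969 and 4858 on days 1, 2 and 3 (Activin A), 714 and 162 on days 5 and 7 (FGF4 and BMP2), 63 and 104 on days 9 and 11 (HGF and KGF), 156 on day 13 and 634 on day 21. The 3 Activin A libraries were higher than the other 7. Day 1 was already 6.51-fold above day 0 (2.70 on the log2 scale), and day 3 was 9.22-fold above it. Counting values within 10 of each other as 1 shared level, GPC4 was in a group of 10 genes on days 1, 2 and 3. There were 39, 50 and 20 genes above it on these days. Its values on these days therefore give its rank group, and the ratios are not measures of an amount of RNA. Under FGF4 and BMP2 the value was lower by 2.76 on the log2 scale at day 5 than at day 3, and by a further 2.13 at day 7. It was lowest at day 9 and 4.06-fold higher at day 21 than at day 13, so that days 0 and 21 differed by 0.27, within the spread. In the order of its 10 values the steps from day 7 to day 0 and from day 5 to day 2 exceeded the spread. These steps divide the values into 3 groups, with days 9, 11, 13 and 7 lowest and days 2, 1 and 3 highest. Days within a group can still differ. Day 9 was 2-fold lower than day 7 by the rule used below, with a log2 difference of -1.35, beyond the spread.

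GPC3 (ENSG00000147257, chrX:132669773-133119922, minus strand) had the widest range of the 9 genes. Its values were 128, 108, 59, 56, 308, 3428, 6493, 6493, 6493 and 4855, in the same order of days. Every library from day 7 on was above every earlier library. Day 3 was 2.29-fold below day 0, a log2 difference of -1.18. Day 5 was then 5.50-fold above day 3 and day 7 was 11.1-fold above day 5, so the whole interval from day 3 to day 7 spanned 61.2-fold (5.91 on the log2 scale). The table gives its most abundant genes a small number of shared levels. Counting values within 10 of each other as 1 level, GPC3 was in a group of 10 genes on days 7, 9, 11 and 13, with 40 genes above it on day 7 and 10 above it on days 9, 11 and 13. The identical value 6493 on 3 days therefore places GPC3 in the same rank group and does not show an equal amount of RNA. On day 21 it was in a group of 9 with 21 genes above it, 0.42 on the log2 scale below day 13 and within the spread.

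GPC3 and GPC4 are neighbours on chromosome X, on the same strand, with 120254 bases between their intervals and 0 other genes of the table in that gap. Their courses ran in opposite directions. At day 3 GPC4 was at its highest value and GPC3 at 0.86% of its own, while at day 9 GPC3 was at its highest value and GPC4 at 1.30% of its own. Taken within each library and set to 0 at day 0, the log2 difference of GPC3 minus GPC4 was -2.94, -3.60 and -4.38 on days 1, 2 and 3, 0.82 on day 5, and 6.43, 8.70, 7.98, 7.40 and 4.97 on days 7, 9, 11, 13 and 21. The total of a library cancels in this difference, but the shared levels do not. GPC4 lay on such a level on days 1, 2 and 3, and GPC3 on days 7, 9, 11, 13 and 21. The size of the difference therefore depends on rank groups. The sign turned between day 3 and day 5, when Activin A was replaced by FGF4 and BMP2 in the protocol.

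GPC2 (ENSG00000213420, minus strand) encodes cerebroglycan, best known from developing neurons. The table gives it the interval chr7:99773852-99774992, which spans only 1141 bases. Its values were 152, 87, 94, 82, 36, 26, 12, 7, 6 and 3 in the order of days. Day 0 was the highest library, and each library from day 5 on was lower than the one before. Day 21 was 5.26 below day 0 on the log2 scale, a 50.7-fold ratio that rests on a value of 3 at day 21. GPC2 gave the 3 values under 10 among the 90 values of the 9 genes, and the order of days 5 to 21 was within the spread at each step, while the steps from day 5 to day 3 and from day 2 to day 0 exceeded it.

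GPC6 (ENSG00000183098, chr13:93879095-95055812, plus strand), mutated in the skeletal disorder omodysplasia, was measured at 135, 325, 179, 226, 154, 86, 136, 269, 540 and 668. It was high at day 1, lowest at day 7, and highest on days 13 and 21. Day 1 was 2.41-fold above day 0, and day 2 was lower than day 1 by 0.86 on the log2 scale. From day 7 to day 13 the ratio was 6.28 (2.64 on the log2 scale). Days 9, 11 and 13 were each above the library before by more than the spread. For the step from day 9 to day 11 the spread is no separate measure, because it was taken from these 2 libraries. GPC5, which is not a member and lies 359604 bases before GPC6 with 0 other table genes between them, was at 8 on day 0, at 0 from day 1 to day 5, and at 8, 24, 26, 44 and 30 from day 7 to day 21.

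GPC1 (ENSG00000063660, chr2:241375088-241407493, plus strand), a broadly expressed glypican that binds FGF2, had the narrowest range, with 145, 120, 205, 290, 324, 223, 228, 193, 169 and 156. It was highest on days 3 and 5. None of the steps between neighbours in the order of its 10 values exceeded the spread, although day 3 was 2.00-fold above day 0 (1.00 on the log2 scale). With the pseudocount that difference came to just under 1 and was not counted as 2-fold.

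Among the syndecans, SDC2 (ENSG00000169439, chr8:97505579-97624000, plus strand), also called fibroglycan and known from mesenchymal cells, had the widest range. Its values were 196, 149, 180, 210, 299, 293, 598, 890, 1065 and 1326. Each library from day 9 on was higher than all libraries before it. Day 9 was 2.04-fold above day 7 and day 11 was 1.49-fold above day 9, both beyond the spread. The spread was itself taken from days 9 and 11, so for that step it is no separate measure. The steps from day 11 to day 13 and from day 13 to day 21 were within the spread. Day 21 was 6.77-fold above day 0 (2.75 on the log2 scale).

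SDC4 (ENSG00000124145, chr20:43953928-43977064, minus strand), the syndecan of focal adhesions, was at 188, 142, 178, 186, 187, 606, 567, 576, 568 and 310. Its values formed a step. The first 5 libraries lay between 142 and 188, the libraries of days 7 to 13 between 567 and 606, and day 21 lay between these groups and apart from both by more than the spread. Day 7 was 3.24-fold above day 5, and day 21 was 0.87 below day 13 on the log2 scale.

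SDC1 (ENSG00000115884, chr2:20400558-20424873, minus strand), the syndecan of epithelial cells, was measured at 138, 221, 155, 72, 50, 69, 110, 149, 138 and 255. It was lowest at day 5 and highest on days 1 and 21. Day 3 was 1.10 below day 2 on the log2 scale, day 13 was exactly 2.00-fold above day 7 (0.99 on the log2 scale), and day 21 was 1.85-fold above day 13. SDC3 (ENSG00000162512, chr1:31342314-31351587, minus strand), the neural syndecan, was at 178, 154, 190, 252, 191, 196, 247, 258, 318 and 460. The last step, from day 13 to day 21, was 0.53 and was the one step in the order of its values beyond the spread.

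The ends of the protocol steps were then compared, counting a gene where log2(value + 1) differed by at least 1, that is 2-fold, and the larger value was at least 50. From day 0 to day 3, the Activin A step, GPC4 was higher (3.20 on the log2 scale) and GPC3 lower (-1.18). That is 1 of 9 in each direction, against 8.17% of all 12125 genes higher and 6.68% lower. The remaining glypicans differed by 1.00 (GPC1), 0.74 (GPC6) and -0.88 (GPC2), and SDC1 by -0.93. With scaling by the median of ratios, GPC1 reached 1.01 and would be counted. SDC2, SDC3 and SDC4 differed by 0.10, 0.50 and -0.02.

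From day 3 to day 7, the FGF4 and BMP2 step, GPC3 (5.91) and SDC4 (1.70) were higher and GPC4 (-4.90), GPC2 (-1.62) and GPC6 (-1.38) were lower. The 2 of 9 members that were higher compare with 9.91% of all genes, and the 3 of 9 that were lower with 9.58%. SDC4 is a syndecan and the 3 lower genes are glypicans. SDC1, SDC2, SDC3 and GPC1 differed by less than the spread, with -0.06, 0.48, -0.36 and -0.38.

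From day 7 to day 13, GPC6 (2.64) and SDC2 (1.86) were higher, 2 of 9 against 7.08% of all genes, and 0 members were counted lower against 6.02%. GPC2 differed by -1.95, but its larger value was 26 and it was not counted. GPC3 (0.92), SDC1 (0.99) and SDC3 (0.70) were higher by more than 2 SD without reaching 2-fold on this scale, although SDC1 reached it (1.04) with scaling by the median of ratios. GPC1, GPC4 and SDC4 differed by -0.40, -0.05 and -0.09, within the spread.

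From day 13 to day 21, GPC4 (2.02) was higher, 1 of 9 against 6.21%, and 0 members were lower against 6.58%. SDC1 (0.88), SDC3 (0.53) and SDC4 (-0.87) differed by more than 2 SD. Over the whole course, from day 0 to day 21, GPC3 (5.23), SDC2 (2.75), GPC6 (2.30) and SDC3 (1.36) were higher, 4 of 9 against 19.1% of all genes, and GPC2 (-5.26) was lower, 1 of 9 against 21.2%. SDC1 differed by 0.88, and by 1.07 with scaling by the median of ratios, which would count it. The median over the 9 genes was 0.88, with -0.12 over all genes. With 9 members, each gene is 11.1% of the list, so the shares of both families are given as counts and no difference from the background was tested.

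Among the 36 pairs of members, the correlation of log2(value + 1) over the 10 libraries was positive in 18 and negative in 18. It was at least 0.8 in 3 pairs, GPC3 with SDC4 (Pearson r = 0.92), GPC3 with SDC2 (0.88) and SDC2 with SDC3 (0.87). It was -0.8 or lower in 6 pairs, GPC2 with SDC2 (-0.97), GPC2 with GPC3 (-0.91), GPC4 with SDC4 (-0.90), GPC3 with GPC4 (-0.89), GPC1 with SDC1 (-0.87) and GPC2 with SDC3 (-0.83). No pair of glypicans was among the 3 high ones. The 10 points of a time course follow each other and share their library between both genes, so these values describe the courses and carry no p-value.

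The genes whose course was most like that of each member were taken from the 4323 genes with a log2 range of at least 2 and a highest value of at least 50. This pool held 7 of the 9 members and left out GPC1 and SDC3. For GPC3 they were TTR, the thyroid hormone and retinol carrier made by the liver (r = 0.998), SLC39A5, a zinc transporter (0.992), and the kinase gene TESK2 (0.992). TTR stood at the table's maximum of 18734 on days 9, 11, 13 and 21, and GPC3 at the shared level of 6493 on the first 3 of these, so their coefficient describes the steps up to day 9 and little of the course after it. SDC4 was most like PRODH2, an enzyme of hydroxyproline breakdown (0.988), NRGN (0.988) and ODAM (0.982). The values of PRODH2 were 0 up to day 5 and 40, 50, 40, 28 and 5 from day 7 on, so SDC4 and PRODH2 shared the step at day 7 and the lower day 21.

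For SDC2 the genes most alike were SVEP1, an extracellular matrix protein (0.989), the water channel AQP1 (0.988) and TFPI, the tissue factor pathway inhibitor (0.986). SVEP1 was at 24 on day 7 and at 353, 756, 2431 and 2798 on days 9, 11, 13 and 21. For GPC4 they were PHF15 (0.960), NTN1, which encodes netrin-1 (0.953), and the transcription factor ETS2 (0.952). NTN1 was at 26 on day 0, at 75, 371 and 466 on days 1, 2 and 3, and at 40 on day 5.

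GPC2 was most like the row that the table names MIR4454 (0.996), RCC2 (0.985) and QSER1 (0.985). GPC6 was most like LRRN2 (0.944), the MAP kinase scaffold KSR1 (0.896) and TENC1 (0.895), and SDC1 like TMCO4 (0.938), TBC1D4 (0.912) and IGSF9 (0.900). The coefficients for GPC6 and SDC1 were below those of the other 5 genes, whose first match was at 0.960 or above. Of the 21 genes named here, 7 were also among the 3 most alike with Spearman's correlation and 10 were without the day 21 library.

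Core proteins act in part through the chains they carry, so genes that build, sulphate and trim heparan sulphate were followed. The lists also hold genes of precursor supply and proteases of the release of core proteins. They named 46 genes, of which 35 were in the table. By the same 2-fold rule, the Activin A step had 5 higher and 2 lower, the FGF4 and BMP2 step 6 higher and 3 lower, days 7 to 13 gave 4 higher and 0 lower, days 13 to 21 gave 4 higher and 1 lower, and the whole course 12 higher and 5 lower. The 4 higher from day 13 to day 21 were UGDH and PAPSS2 of precursor supply and the proteases PCSK5 and PCSK6. The shares of all genes counted are those given above for the members.

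In chain assembly (10 of 11 genes in the table) 0 genes were counted in either direction from day 0 to day 3. From day 3 to day 7 EXT1, a subunit of the polymerase that extends the chain, was higher (2.18), B4GALT7 was higher (1.14) and XYLT1, which can start the chain on the core protein, was lower (-1.28). EXT1 was at 64, 74, 78, 124, 398, 566, 576, 459, 470 and 456 over the 10 days, and XYLT1 at 142, 168, 169, 125, 129, 51, 47, 48, 42 and 20. EXT1 was thus higher from day 5 on and XYLT1 lower from day 7 on. XYLT2, the other enzyme that can start the chain, was counted in 0 comparisons and is named after its values were seen, with 134 on day 0, 76 on day 7, 88 on day 13 and 148 on day 21. The partner of EXT1, EXT2, went from 142 to 295 between day 0 and day 21 (1.05), while EXTL2 and EXTL3 were lower by that comparison (-1.15 and -1.16).

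Of the sulphation and epimerization enzymes (9 of 16 in the table), HS6ST1 had its highest value at day 3, as GPC4 did. HS6ST1, a 6-O-sulphotransferase, was at 186 on day 0, 214 on day 1, 620 on day 3, 530 on day 5 and 232 on day 7. Its course differed from that of GPC4, which was at 3430 on day 1 and 714 on day 5. HS2ST1, which places the 2-O-sulphate, was at 92 on day 3 and 362 on day 7, and NDST1, which starts sulphation of the chain, was at 334 and 676. HS3ST3B1 was at 43 on day 7 and 134 on day 13. From day 0 to day 21, NDST1 (1.27), HS6ST2 (1.19) and HS3ST3B1 (1.77) were counted higher and 0 genes lower.

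In precursor supply (7 of 7), UGP2, which makes UDP-glucose, was at 2429 on day 0, 576 on day 3, 169 on day 7 and 378 on day 21. UGDH, which turns UDP-glucose into UDP-glucuronate, was at 152 on day 0, 282 on day 13 and 598 on day 21, and PAPSS2, a synthase of the sulphate donor, was at 82, 76 and 293 on these days. UGP2 was thus counted lower from day 0 to day 3 and from day 3 to day 7, and UGDH and PAPSS2 higher from day 13 to day 21, the interval in which GPC4 was counted higher too.

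Among the genes for trimming and release (9 of 12), the endosulphatases SULF1 and SULF2, which remove 6-O-sulphate outside the cell, had opposite courses over the Activin A step. SULF2 was at 62, 74, 447, 824, 790, 1046, 891, 824, 660 and 331, and SULF1 at 172, 102, 34, 44, 11, 32, 112, 60, 68 and 40. The day 0 to day 3 differences were 3.71 and -1.94. NOTUM, a hydrolase known to act on Wnt ligands at glypicans and also named after its values were seen, reached 212 at day 5 and was at 28 on day 7. FURIN, of the convertase family that cleaves glypican core proteins, was at 149 on day 0 and 420 on day 3. The related PCSK5 was at 39 on day 0, 387 on day 13 and 804 on day 21, and PCSK6 at 8, 204 and 1088. Both were counted higher in each comparison from day 3 on.

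Other carriers of heparan sulphate chains and part-time proteoglycans (9 of 10 in the table) were compared in the same way. The Activin A step had 2 higher, NRP1 and NRP2, and 0 lower. Between days 3 and 7 there were 5 higher and 1 lower, and between days 7 and 13 there were 4 higher and 0 lower. Between days 13 and 21 there were 0 in either direction. Of all genes, 8.17% were higher and 6.68% lower in the Activin A step, and 9.91% and 9.58% from day 3 to day 7. The shares were 7.08% and 6.02% from day 7 to day 13, and 6.21% and 6.58% from day 13 to day 21. CD44 was at 7 on day 3, 52 on day 7 and 902 on day 13, and TGFBR3, which encodes betaglycan, at 27, 143 and 1250. The basement membrane proteoglycans HSPG2 (1065 on day 3, 2796 on day 7) and COL18A1 (804 and 2796) were higher at day 7, in the step in which GPC3 and SDC4 were counted higher. NRP2 was at 60 on day 0, 405 on day 3, 189 on day 7 and 598 on day 13. BGN was counted higher from day 7 to day 13, with 18 and 114.

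Proteins that bind the syndecan tail or act with syndecans at adhesions (11 of 12) were counted mostly in the Activin A step. There 4 were higher and 1 lower, against 8.17% and 6.68% of all genes, while 0 syndecans were counted. SDCBP, the scaffold syntenin, was at 622 on day 0 and 1739 on day 3. The integrin subunits ITGAV (294 and 2643) and ITGA5 (154 and 920) were higher as well, and PRKCA, the kinase that binds the SDC4 tail, was lower (61 and 24). From day 3 to day 7, when SDC4 was higher, 0 of these genes were counted higher and 1, SDCBP, lower, with 855 on day 7. The shares of all genes in that step were 9.91% and 9.58%.

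Of the heparin-binding growth factors (15 of 18), the Activin A step had 4 higher and 3 lower, against 8.17% and 6.68% of all genes. The FGF4 and BMP2 step had 5 higher and 5 lower, against 9.91% and 9.58%. FGF17 was at 3 on day 0, 2426 on day 3 and 5 on day 7, and WNT3 at 6, 158 and 16, so both peaked with GPC4 at day 3. WNT11 was at 1 on day 3 and 125 on day 7, and IHH at 4 and 310. CXCL12 was at 10 on day 7, 221 on day 13 and 35 on day 21. Between days 13 and 21, 5 of these genes were lower and 0 higher, against 6.58% and 6.21% of all genes.

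Stage markers largely followed the order of the protocol's stages. The sum of POU5F1, NANOG and SOX2 was 5692 on day 0 and 5 on day 21, and that of 4 definitive endoderm markers was 9 on day 0 and 1863 on day 3. Of these markers, SOX17 and CXCR4 were highest on day 3 and GSC on day 2, while FOXA2 was highest on day 7 (343). CXCR4 was at 568 on day 3, 0 on day 13 and 58 on day 21. HNF4A was at 28 on day 3 and 1044 on day 7, AFP went from 33 to the table's maximum of 18734 over this step, and TTR was at that maximum from day 9 on. ALB was at 168 on day 13 and 4866 on day 21. Markers of other cell types were present too. The summed value of 9 stromal genes, all in the table, was 846 on day 3, 5049 on day 7, 18665 on day 9, 38660 on day 13 and 41795 on day 21, with COL1A2 at the table's maximum on the last 2 of these days. By the 2-fold rule 7 of the 9 were higher and 0 lower from day 7 to day 13, against 7.08% and 6.02% of all genes. SDC2 and GPC6 were counted higher in the same interval. GPC6 was at 325 on day 1, when the sum was 1309, and at its lowest, 86, on day 7, when the sum was 5049. In the sum of day 1, COL1A2 stood at 686 and THY1 at 398. THY1, also known as a surface protein of pluripotent cells, ran against the other stromal genes, with 2164 on day 0 and 12 on day 21. The sum of 4 of 6 endothelial genes was 575 on day 0, 373 on day 7 and 1902 on day 13. CDH5, TEK and KDR were counted higher from day 7 to day 13, while VWF was highest on day 3 (309) and at 38 on day 13. KDR was also at 517 on day 0. PECAM1 and ERG were not in the table. The sum of 6 red cell genes was 43 on day 7 and 4393 on day 13. The 2 macrophage genes in the table of 6 listed summed to 0 to 324, and 3 of 4 cholangiocyte genes to 594 to 4991, highest on day 7. On day 7 KRT19 stood at 3861, EPCAM at 1108 and KRT7 at 22, and SOX9 was not in the table. KRT19 and EPCAM were already at 266 and 372 in the undifferentiated cells of day 0, so this sum does not identify cholangiocytes. The part of other cell types in the courses of SDC2, GPC6 and the other members was not tested. In bulk RNA a larger share of cells of a type cannot be told apart from more RNA per cell.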

How the data were processed

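RNA of H1 cells was sequenced on 10 days of hepatic differentiation, with 1 library per day. Reads were aligned with Bowtie2 2.2.0 and quantified with RSEM 1.2.17, as the submitters' processing notes and the study's methods state, and normalized for GC content with EDASeq. The methods name a mouse transcriptome, although the table holds human genes, and the processing notes list builds mm10 and hg19 without a role, so the build of the table's intervals is not given in the sources used here. The deposited table holds the authors' normalized values, whole numbers that are not read counts and are treated here as a score. The 10 libraries summed to 2330948 to 2362740 over 12125 genes, 1.36% apart, with a common maximum of 18734, so the sums do not show the depth, and no interval or limit of detection was computed.

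Values were compared as differences of log2(value + 1) in scipy 1.17.1, pandas 2.3.3 and numpy 2.4.6 under Python 3.11.15, and figures were made in matplotlib 3.10.9. Days 0 and 3, 3 and 7, 7 and 13, 13 and 21, and 0 and 21 were compared. A gene was counted where these values differed by 1 or more and the larger deposited value reached 50. Other pseudocounts, scalings, limits and minimum values were tried. All members were named. Up to 4 counted genes of a list were named per comparison, and 3 genes most alike per member by Pearson's correlation. The members and lists were chosen with earlier results of these data known. Promoter windows came from RefSeq (GRCh38.p14), without the transcribed bases.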

Additional observations from a re-analysis of the deposited data

How the results depend on the processing

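The 45 member differences kept their sign in 135 of 135 recomputations, with a pseudocount of 5, median of ratios scaling and upper quartile scaling. Of these, only scaling by the median of ratios could have turned a sign. The upper quartile factor was 1 in each of the 10 libraries and left the values unchanged. A pseudocount cannot turn the sign of a difference. With median of ratios scaling 2 members in place of 1 were higher at day 3 than at day 0, since GPC1 then passed 2-fold, and SDC1 joined the higher members from day 7 to day 13 (3 in place of 2) and from day 0 to day 21 (5 in place of 4). This scaling moved the median difference of all genes between days 0 and 21 from -0.12 to 0.06. With 4-fold as the limit, 0 were lower from day 0 to day 3, 1 was higher and 1 lower from day 3 to day 7, and 1 was higher from day 7 to day 13. With a minimum of 200, 0 were lower from day 0 to day 3 and 0 from day 0 to day 21. With no minimum, GPC2 was the 1 member lower from day 7 to day 13. With day 11 in place of day 13, a choice made after seeing the data, 2 members were higher at day 21, GPC4 and GPC6. The counts beyond 2 SD depended on the libraries that gave the SD. With days 5 and 7 they were 1, 3, 2, 1 and 4 in place of 6, 5, 6, 4 and 7 for the 5 day pairs. With days 1 and 2 they were 1, 5, 2, 1 and 5. The share of all genes was not computed for the SD of days 1 and 2. It was also not computed for the other scalings, limits and minimum values or for day 11, so these counts have no background beside them. Of the 21 genes named as most alike, 7 were kept with Spearman's correlation and 10 without day 21.

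No paired analysis was possible because each day has 1 library. A change of 1 library cannot be told apart from a change of its day, and the depth of each library is unknown, so values under about 10, such as those of GPC2 from day 11 on, are the least certain.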
